A study of Homo sapiens with 6 samples.

Results

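FGFR1, FGFR2, FGFR3, FGFR4, MET, AXL, TYRO3 and DDR1 encode 8 receptor tyrosine kinases that bind fibroblast growth factors, hepatocyte growth factor, vitamin K-dependent ligands or collagen. They were taken by name from the deposited count table of T47D and T47D-TR breast cancer cells, and all 8 were found among its 20503 genes. All 8 also passed the filter on low counts. In T47D-TR, FGFR2 and FGFR3 were lower, FGFR1 was higher, AXL was lower, and DDR1 and TYRO3 were slightly higher, while MET, the most abundant of them, and FGFR4 did not pass the test.

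Receptor tyrosine kinases span the cell membrane once. Binding of a ligand outside the cell brings receptor chains together, the kinase domains inside phosphorylate one another, and adaptor proteins then start the RAS-ERK and PI3K cascades. The FGF receptors need heparan sulphate for ligand binding and recruit the docking protein FRS2, MET recruits GAB1, AXL and TYRO3 form the TAM family with MERTK, and DDR1 is unusual in being activated by collagen of the matrix. In breast tumours, raised activity of FGF receptors, MET and AXL has been studied in connection with resistance to endocrine therapy.

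The series holds 6 libraries of poly(A)-selected RNA. The 3 T47D libraries come from a breast cancer line that the labels call ER-positive, and the 3 T47D-TR libraries come from a tamoxifen-resistant subline derived from it. The subline was kept in 1 μM 4-hydroxytamoxifen, whose presence therefore cannot be told apart from resistance, and the medium of either was DMEM with 10% serum. It is 1 subline. Whether libraries within a group came from separate cultures is not stated, and p-values here therefore reflect only how far these libraries vary, which may be technical.

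Libraries held 17199315 to 19867230 counts, and 3 counts correspond to 0.153 to 0.178 CPM (counts scaled to the library total, here with TMM factors). The cells did not carry all the markers of their label: ESR1, the oestrogen receptor alpha gene, had 0 to 4 counts in each of the 6 libraries, and GATA3, a luminal transcription factor gene, stood at 1.23 CPM in T47D and 0.625 CPM in T47D-TR. Of 15 luminal markers listed, 11 were analysed here, whose summed CPM ran from 2220 to 2306 (T47D) and from 2702 to 3086 (T47D-TR) and lay mostly in the keratin genes KRT8 and KRT18. All 14 mesenchymal and basal markers listed were analysed here, summing to 1828 to 1854 CPM (T47D) and 2964 to 3048 CPM (T47D-TR). Not all were detected: KRT14 had 0 counts and TP63 0 to 2 counts in the T47D libraries. KRT14 and SPARC did not pass the filter on low counts. T47D-TR replicate 3 stood apart from the other T47D-TR libraries and is followed separately below. It held 22 counts of COL1A2, 37 of COL3A1 and 19 of DCN, fibroblast genes with 0 to 4 counts in any other library. PDGFRA, another fibroblast marker, had 2 counts in it and 0 in each of the other 5 libraries. The library stood out for other genes too. KRT14, from the mesenchymal and basal list, had 15 counts in replicate 3, against 2 and 1 in the other T47D-TR libraries. SPARC, from the same list, had 19 counts there, against 2 and 2 in the other T47D-TR libraries and 8, 0 and 7 in T47D. The 7 fibroblast markers analysed here summed to 22.8 to 27.8 CPM in T47D-TR and 37.8 to 41.3 CPM in T47D. Most of that difference was LUM, which fell from 13.9 to 0.253 CPM. PDGFRB was also called lower and ACTA2 higher, while COL1A1 stood at 18.2 and 17.5 CPM. Of the 5 immune and endothelial markers analysed here, 4 stayed under 1 CPM in both groups, and PECAM1 reached 27.3 CPM in T47D-TR. The part of these markers in the results was not tested.

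Of the 8 receptors, edgeR's quasi-likelihood test called 3 higher and 3 lower in T47D-TR at a Benjamini-Hochberg adjusted p under 0.05, so 6 of 8 were called, where 63.0% of all 15961 tested genes were. Calls to the higher side made up 32.5% of tested genes and calls to the lower side 30.5%. The 2 groups did not overlap for the same 6 receptors, against 68.3% of tested genes, and 2 of 8 were called with a change of at least 2-fold, against 14.0%. The receptors' shares lie near those of all genes. Their median log2 fold change was -0.14, against 0.0019 over all tested genes. In these bulk libraries a smaller share of cells with a transcript and less transcript per cell cannot be told apart.

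**Figure D1:**
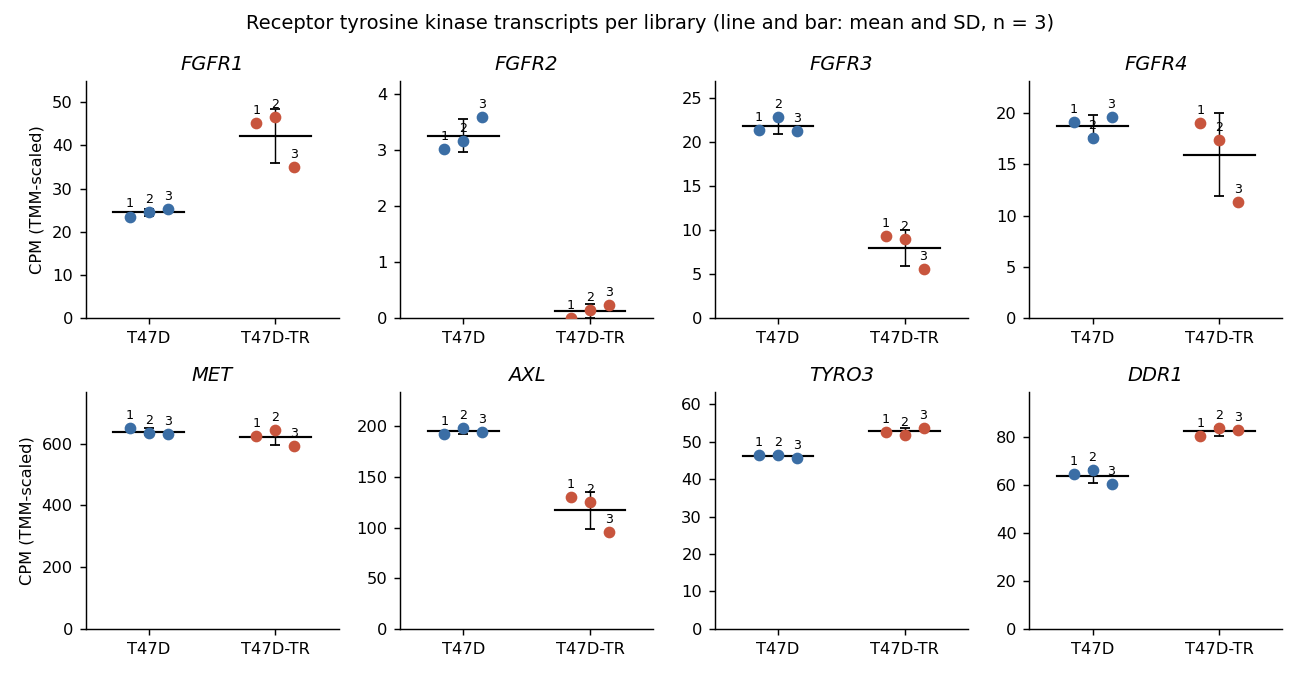
Level of each receptor gene in CPM (vertical axis, from 0) in the 3 T47D and 3 T47D-TR libraries, with the replicate number beside each point, the group mean as a line and the SD as a bar. The groups are separate for 6 genes and overlap for FGFR4 and MET, and T47D-TR replicate 3 is the lowest T47D-TR point for FGFR1, FGFR3, FGFR4, MET and AXL.

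FGFR1 was the FGF receptor that rose. The gene (chromosome 8, 38411143 to 38468635, GRCh38.p14, minus strand) encodes a receptor for many paracrine FGFs and is known for amplification in ER-positive breast tumours. It had 437, 482 and 472 counts in the T47D libraries and 869, 912 and 589 in the T47D-TR libraries, which corresponds to 23.5, 24.7 and 25.3 CPM against 45.1, 46.5 and 34.9 CPM. Each T47D-TR library lay above each T47D library, and replicate 3 was the lowest of its group. The mean went from 24.5 ± 0.893 to 42.1 ± 6.33 CPM (SD, n = 3), a log2 fold change of 0.79 ± 0.13 (SE; edgeR adjusted p = 1.65e-05). This SE, like each SE of a log2 fold change below, comes from log2 CPM with a prior count of 2 and not from edgeR. Exons of FGFR1 overlap those of the antisense gene AC087623.1 in GENCODE 29, and with no strand setting stated for the counting, the reads of sense and antisense transcripts may be mixed.

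FGFR2 fell to the limit of detection in T47D-TR. FGFR2 (chromosome 10, 121478330 to 121598458, minus strand) has epithelial and mesenchymal splice forms with different ligands, which counts per gene do not separate. It had 56, 62 and 67 counts in T47D and 0, 3 and 4 counts in T47D-TR. All 3 T47D-TR values were at or near the limit of detection: the 0 of replicate 1 allows up to 0.156 CPM, and the others were 0.153 and 0.237 CPM. The pooled 185 against 7 counts make FGFR2 26-fold lower, with a 95% exact interval of 12.4 to 65.5 that covers counting error only. edgeR gave a log2 fold change of -4.62 (adjusted p = 9.89e-07), a size of change that 0.652% of tested genes exceeded. It was -5.29 without T47D-TR replicate 3 and -4.04 without T47D-TR replicate 1. The SE of 0.51 is not edgeR's but comes from log2 CPM with a prior count of 2. On that scale limma gave a log2 fold change of -3.99. In T47D, FGFR2 was already the scarcest of the 4 FGF receptors at 3.26 ± 0.298 CPM.

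FGFR3 (chromosome 4, 1793293 to 1808867, plus strand), a receptor for paracrine FGFs that is best known from bone growth and bladder cancer, was lower as well. Its counts were 397, 446 and 396 in T47D and 180, 177 and 94 in T47D-TR. In CPM these are 21.4, 22.8 and 21.2 against 9.33, 9.03 and 5.57, so the groups did not overlap and replicate 3 was again lowest. The means were 21.8 ± 0.876 and 7.97 ± 2.09 CPM, and FGFR3 was 2.71-fold lower (log2 -1.44 ± 0.24, edgeR adjusted p = 2.25e-06). Without T47D-TR replicate 3 the log2 fold change was -1.25. A larger change was seen in 7.97% of tested genes.

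FGFR4 (chromosome 5, 177086915 to 177098144, plus strand), the main receptor of the endocrine factor FGF19, did not pass the test. It stood at 19.1, 17.6 and 19.6 CPM in T47D and at 19.1, 17.4 and 11.4 CPM in T47D-TR. The first 2 T47D-TR libraries lay within or just below the T47D range, and replicate 3 lay below all others at 62.4% of the mean of its group's other libraries. The log2 fold change was -0.23 ± 0.23 (edgeR adjusted p = 0.19), with a 95% interval of -0.87 to 0.42 that includes a fall of the size seen in AXL. Without T47D-TR replicate 3 it was -0.04 (edgeR adjusted p = 0.694), and without T47D-TR replicate 1 it was -0.37 (edgeR adjusted p = 0.0512).

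The promoters of the 2 FGF receptor genes that fell and of FGFR4, which was not called, are shown because these neighbours in the family differed so much in change. They are RefSeq sequences (GRCh38.p14) of the 250 bases before the outermost listed start, 5′ to 3′ on the gene's strand: chr10:121598445-121598694 on the minus strand for FGFR2, chr4:1793043-1793292 on the plus strand for FGFR3 and chr5:177086665-177086914 on the plus strand for FGFR4. No such sequence was available for FGFR1, the FGF receptor that rose. Capitals mark each GC box, GGGCGG or its reverse complement CCGCCC, the letters bound by factors of the SP1 family.
FGFR2: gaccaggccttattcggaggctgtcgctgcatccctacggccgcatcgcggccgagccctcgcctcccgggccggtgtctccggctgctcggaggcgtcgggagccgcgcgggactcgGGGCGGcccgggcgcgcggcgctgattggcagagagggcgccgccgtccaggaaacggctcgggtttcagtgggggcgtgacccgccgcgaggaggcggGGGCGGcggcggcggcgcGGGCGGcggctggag
FGFR3: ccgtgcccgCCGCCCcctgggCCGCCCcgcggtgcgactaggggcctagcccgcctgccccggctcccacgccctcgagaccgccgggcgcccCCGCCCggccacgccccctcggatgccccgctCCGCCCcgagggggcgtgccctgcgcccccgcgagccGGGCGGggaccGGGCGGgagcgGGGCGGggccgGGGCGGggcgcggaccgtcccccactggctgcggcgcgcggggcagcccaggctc
FGFR4: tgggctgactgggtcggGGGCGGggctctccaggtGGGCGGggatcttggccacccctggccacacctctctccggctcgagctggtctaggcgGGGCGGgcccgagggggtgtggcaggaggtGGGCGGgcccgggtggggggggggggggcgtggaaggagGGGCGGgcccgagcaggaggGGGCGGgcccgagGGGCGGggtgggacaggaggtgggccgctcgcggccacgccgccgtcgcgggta
FGFR3 holds 8 GC boxes, FGFR4 7 and FGFR2 3, and 42.6% of 35116 such windows in the RefSeq table hold at least 1. GC content was 78.4% in FGFR2, 86.8% in FGFR3 and 79.6% in FGFR4, against a median of 58.0%. Neither a TATA box (TATAAA or TTTATA, in 10.7% of windows) nor an AP-1 site (TGANTCA, its own reverse complement, in 6.57%) matched in these 3 windows. The E-box CANNTG, which reads alike on both strands, matched 1 time in FGFR4 and in neither of the others, against 61.8% of windows. A match is a description of the letters only, and the table lists 5 starts for FGFR2 and 2 for FGFR4, whose use in these cells was not measured. Part of the windows lies in annotated exons of GENCODE 29: 14 bases in FGFR2 and 29 in FGFR4, against 0 in FGFR3.

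FGFR1 rose where FGFR2 and FGFR3 fell, and the make-up of the FGF receptor transcripts differed between the groups. The 4 genes together had 67.0 to 69.7 CPM in T47D and 73.5, 73.1 and 52.05 CPM in T47D-TR, the last in replicate 3. Divided by coding length and expressed as a share of the 4, FGFR1 made up 33.8%, 34.9% and 35.0% in T47D and 59.9%, 62.3% and 65.7% in T47D-TR. FGFR3 made up 31.0% to 34.0% and then 11.1% to 13.1%. FGFR4 went from 28.2% ± 1.51 to 24.8% ± 2.11 and FGFR2 from 4.77% ± 0.343 to 0.225% ± 0.232 (SD, n = 3). The T47D-TR share of FGFR2 rests on 0, 3 and 4 counts and was 0.338% without replicate 1 and 0.106% without replicate 3. By coding length, no FGF receptor held more than 35.0% of a T47D library, and FGFR1 held the largest share of each T47D-TR library. The shares of FGFR1, FGFR2 and FGFR3 did not overlap between groups (exact permutation test, 2-sided, p = 0.1, the smallest that 3 against 3 libraries can give), and that of FGFR4 did (p = 0.2, exact). The ratio of FGFR1 to FGFR3 was 1.02 to 1.13 in T47D and 4.57, 4.88 and 5.94 in T47D-TR. Replicate 3, though low in all 3 of FGFR1, FGFR3 and FGFR4, held the highest FGFR1 share. Levels set by length depend on which length is used: with the union of annotated exons, FGFR1 held 25.0% in T47D, below the 39.1% of FGFR4, and 49.2% in T47D-TR, above the 37.3% of FGFR4.

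**Figure D2:**
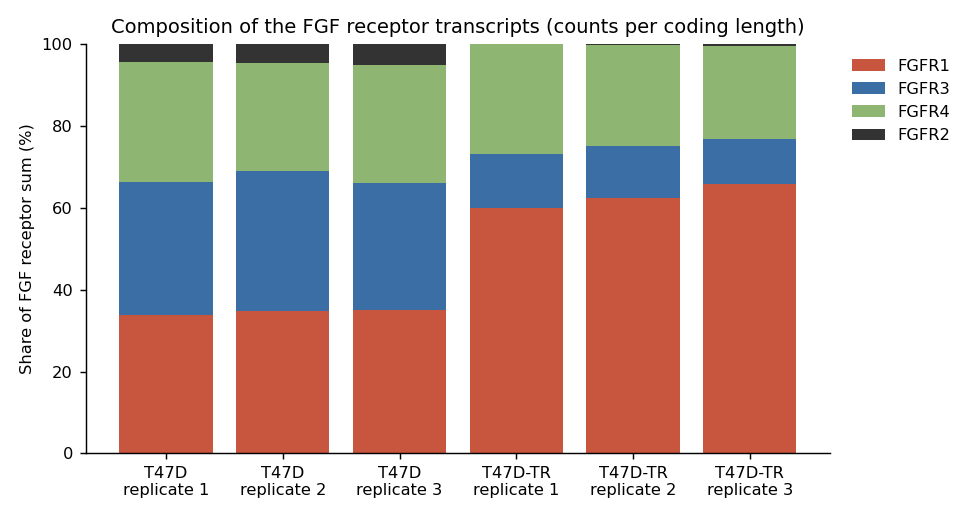
Share of each FGF receptor gene (vertical axis, percent) in the sum of the 4 genes' counts per coding length, 1 bar for each library. FGFR1 takes 33.8% to 35.0% of the T47D bars and 59.9% to 65.7% of the T47D-TR bars.

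Of the 18 FGF ligand genes listed, 6 were analysed here and 3 tested. FGF2, the basic fibroblast growth factor gene and the most abundant of them, had 711, 688 and 680 counts in T47D and 518, 594 and 430 in T47D-TR. The groups did not overlap, and the mean of FGF2 fell from 36.6 ± 1.56 CPM to 27.5 ± 2.48 CPM (log2 -0.41 ± 0.08, edgeR adjusted p = 0.000408). FGF18, a ligand of FGFR3 among others, fell from 56, 76 and 61 counts to 16, 19 and 7 (log2 fold change -2.17 ± 0.34, edgeR adjusted p = 1.5e-05). FGF21, an endocrine factor and stress-response product, rose from 6, 5 and 5 counts to 31, 48 and 43 (log2 2.93, edgeR adjusted p = 7.26e-06) but reached only 2.20 CPM.

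Genes for proteins that hold or present FGFs at the cell surface moved in both directions. Of 11 tested co-receptor and binding protein genes 6 rose and 3 fell, 2 missed the threshold, and the median was 0.39 on the log2 scale. The share called was 81.8%, against 63.0% of all tested genes. SDC2 and SDC1, the genes of syndecans whose heparan sulphate chains present FGFs, rose by 1.09 and 0.65 on the log2 scale. FGFBP1, which encodes a secreted protein that releases FGFs from the matrix, fell from 381, 450 and 446 counts to 148, 110 and 74 (log2 -1.92 ± 0.24, edgeR adjusted p = 2.67e-07). GPC1, a glypican gene, fell by 0.27 and FGFRL1, which encodes an FGF receptor without a kinase domain, fell by 0.25 on the log2 scale. FLRT2, a gene of a membrane partner of FGF receptors, rose by 0.78. The klotho co-receptor gene KLB, needed for FGF19 and FGF21 signalling, was at 0.603 and 0.711 CPM and was not called.

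MET, the receptor of hepatocyte growth factor, was the most abundant of the 8 and of all 44 receptor tyrosine kinase genes ranked, in both groups. The gene (chromosome 7, 116672196 to 116798377, plus strand) had 12097, 12435 and 11781 counts in T47D and 12048, 12620 and 10016 in T47D-TR. At 651, 636 and 631 CPM against 625, 644 and 593 CPM the groups overlapped. The log2 fold change was -0.04 ± 0.04 (edgeR adjusted p = 0.361), with a 95% interval of -0.15 to 0.06, so a change of the size seen in DDR1 lies outside it. Per kilobase of coding sequence MET stood at 151 ± 2.48 CPM (T47D) and 147 ± 6.03 CPM (T47D-TR), and it held 25.7% to 25.8% of the summed level of the 44 kinases in T47D and 20.4% to 22.0% in T47D-TR.

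Around MET, the genes of activators and inhibitors of its ligand were examined, while HGF itself was not among the 20503 genes of the deposited counts. Of the 12 tested genes of the HGF-MET list 8 rose and 1 fell, 3 missed the threshold, and the median log2 fold change was 0.31. The share called was 75%, against 63.0% of all tested genes, of which 32.5% were called higher and 30.5% lower. MST1R, which encodes RON, the closest relative of MET, rose from 268, 240 and 257 counts to 1077, 1031 and 848 (13.5 ± 1.11 to 52.9 CPM; log2 1.97 ± 0.08, edgeR adjusted p = 6.21e-10). ST14, the gene of the protease matriptase that can activate pro-HGF, rose by 0.99 on the log2 scale (199, 203 and 167 counts against 363, 378 and 367). SPINT1, whose product HAI-1 inhibits matriptase and the HGF activator, fell from 45, 42 and 45 counts to 3, 3 and 1, a log2 fold change of -4.14 ± 0.22 (edgeR adjusted p = 6.27e-07). The related inhibitor gene SPINT2 had 758, 699 and 779 counts in T47D and 1240, 1184 and 1011 in T47D-TR, and rose by 0.64. PLXNB3, a plexin gene, rose by 0.76, and CD44, a co-receptor gene of MET, by 0.56. Leaving out T47D-TR replicate 2 or 3 changed the count of genes called lower from 1 to 2.

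AXL fell while its family member TYRO3 rose slightly. AXL (chromosome 19, 41219223 to 41261766, plus strand), a receptor for GAS6 often found in mesenchymal cell states, had 3579, 3882 and 3629 counts in T47D and 2505, 2460 and 1621 in T47D-TR. The levels of 193, 199 and 194 CPM against 130, 125 and 96.0 CPM did not overlap. The log2 fold change was -0.74 ± 0.14 (edgeR adjusted p = 1.05e-05) and -0.61 without T47D-TR replicate 3. Exons of AXL overlap the antisense gene AC011510.1, with the same limit on strand as in FGFR1. The 250 bases before its first RefSeq start (chr19:41218973-41219222, plus strand) are shown for contrast with the FGF receptors, with GC boxes again in capitals.
AXL: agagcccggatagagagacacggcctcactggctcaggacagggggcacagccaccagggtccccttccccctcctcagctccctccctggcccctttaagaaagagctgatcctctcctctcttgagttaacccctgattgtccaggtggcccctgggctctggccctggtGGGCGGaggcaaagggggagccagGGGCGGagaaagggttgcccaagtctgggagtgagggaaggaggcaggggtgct
This window holds 2 GC boxes and 1 E-box, no TATA box and no AP-1 site, and has a GC content of 64.4%.

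TYRO3 (chromosome 15, 41559212 to 41583589, plus strand), a TAM receptor best known from the nervous system, had 863, 910 and 854 counts in T47D and 1017, 1017 and 907 in T47D-TR. In CPM the libraries stood at 46.5, 46.5 and 45.8 against 52.7, 51.9 and 53.7, a small difference with little spread. TYRO3 rose by 0.19 ± 0.02 on the log2 scale (edgeR adjusted p = 0.00667), a change that 72.4% of tested genes exceeded. DESeq2 also called it (adjusted p = 0.0305), whereas the authors' deposited table gives it a false discovery rate of 0.059. Of the 50-base stretches in its GENCODE 29 transcripts 4.43% also occur in transcripts of other genes, most often in its pseudogene TYRO3P, so part of its reads is uncertain. For the other 7 receptors this share was at most 0.736%, and no stretch was shared between any of the 8. The ratio of TYRO3 to AXL per coding length was 0.242, 0.236 and 0.236 in T47D and 0.408, 0.415 and 0.562 in T47D-TR (exact permutation p = 0.1). With exon union length its means were 0.129 and 0.25.

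The third TAM receptor gene, MERTK, had 9, 6 and 4 counts in T47D and 1, 1 and 6 in T47D-TR and was not tested. Of the TAM ligands, GAS6, which binds all members of the family, was at 286, 298 and 272 counts in T47D and 281, 294 and 289 in T47D-TR and was not called (log2 fold change 0.04, edgeR adjusted p = 0.693). Its sign flipped with voom and quantile normalization (-0.10) and without T47D-TR replicate 3 (-0.03). PROS1, which encodes protein S, a ligand of TYRO3 and MERTK, rose from 124, 115 and 103 counts to 380, 400 and 438 (log2 1.86 ± 0.15, edgeR adjusted p = 8.38e-08). ADAM17, the gene of a protease that sheds membrane proteins, rose by 0.75 on the log2 scale. Of 5 tested genes on this list 4 rose, none fell and 1 was not called, so 80% were called, against 63.0% of all tested genes (32.5% higher). Without T47D replicate 1 the count that rose was 3.

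DDR1 (chromosome 6, 30880970 to 30900156, plus strand), an epithelial collagen receptor, had 1194, 1292 and 1128 counts in T47D and 1547, 1641 and 1400 in T47D-TR. All 3 T47D-TR levels, at 80.2, 83.7 and 82.9 CPM, lay above the T47D levels of 64.3, 66.1 and 60.4 CPM. It rose by 0.37 ± 0.04 on the log2 scale (edgeR adjusted p = 4.83e-05). Replicate 3 of T47D-TR, low for 5 of the receptors, was at 101% of its group's other libraries here. The ratio of MET to DDR1 per coding length went from 6.28 to 6.82 in the T47D libraries to 4.67 to 5.08 in the T47D-TR libraries (exact permutation p = 0.1). Without division by length its means were 10.1 and 7.54.

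DDR2, the second collagen receptor gene, more typical of mesenchymal cells, had 234, 300 and 243 counts in T47D and 325, 370 and 496 in T47D-TR. It was called higher (log2 fold change 0.66 ± 0.26, edgeR adjusted p = 0.00517), and replicate 3, the library with COL1A2 and COL3A1 counts, was the highest. Without that library its log2 fold change was 0.39 (adjusted p = 0.000753). Among the 11 tested genes of DDR2 and collagen chains 8 rose, none fell and 3 were not called (median 0.92 on the log2 scale). That is 72.7% called, against 63.0% of all tested genes, of which 32.5% were higher. COL5A1 was the most abundant and rose from 256 ± 4.44 to 738 CPM, COL6A2 rose by 2.71 and the basement membrane chain COL4A6 by 1.54 on the log2 scale, while COL1A1 stood at 18.2 and 17.5 CPM. Leaving out T47D replicate 2 or T47D-TR replicate 2 added 1 gene called lower.

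**Figure D3:**
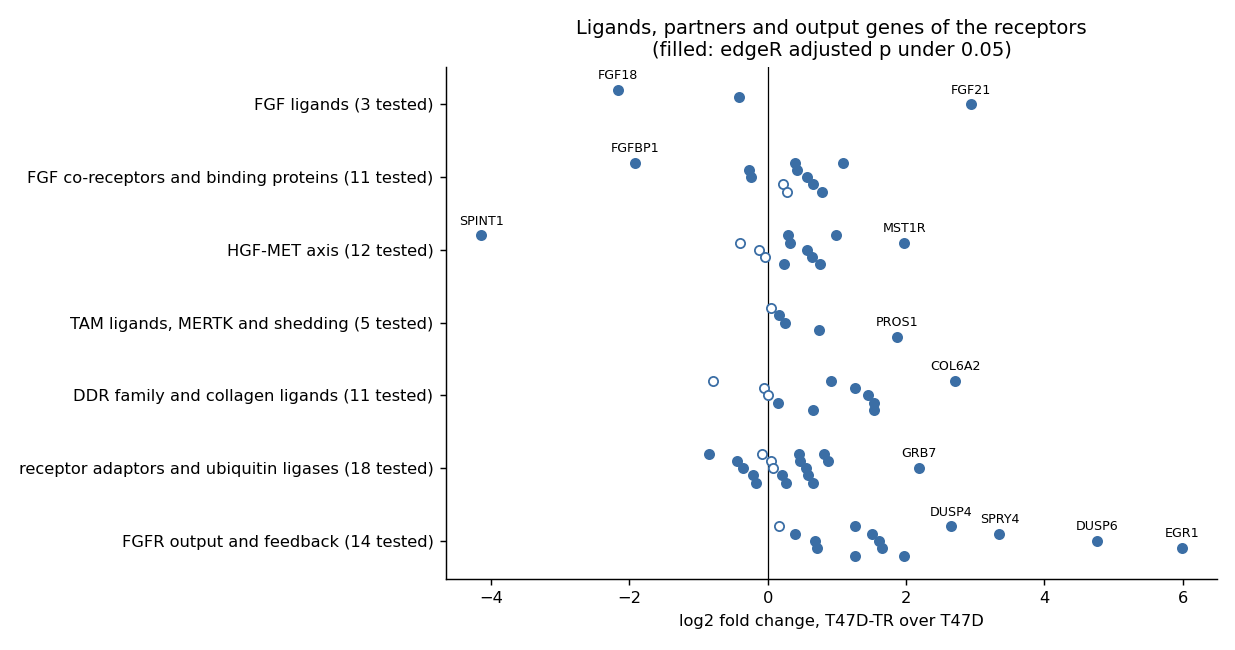
Log2 fold change (horizontal axis, T47D-TR over T47D) of every tested gene in 7 lists around the receptors, 1 point a gene, filled where edgeR called it. SPINT1, FGF18 and FGFBP1 lie farthest to the left, and EGR1 and DUSP6 farthest to the right.

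Adaptors that carry the signal inward moved both ways. Of 18 tested adaptor and ubiquitin ligase genes 10 rose and 5 fell, and 3 missed the threshold (median log2 fold change 0.24). The share called was 83.3%, against 63.0% of all tested genes. GRB7, an adaptor gene next to ERBB2 on its chromosome, rose by 2.19 and CBL, which encodes a ubiquitin ligase that removes active receptors, rose by 0.86, while its relative CBLB fell by 0.85 on the log2 scale. PTPN11, the gene of the phosphatase SHP2 that passes FGF receptor signals to RAS, fell from 413 ± 8.75 to 304 CPM. GAB1, the docking protein gene used by MET, rose from 8.81 to 13.2 CPM. FRS2, that of FGF receptors, was called higher at 28.9 and 33.4 CPM (edgeR adjusted p = 0.0354), but its groups overlapped. Leaving out any 1 of the T47D libraries left 3 genes called lower in place of 5, and leaving out any 1 of the 6 libraries left 8 or 9 called higher in place of 10. Of 14 tested output and feedback genes of FGF receptor and ERK signalling 13 rose and 1 was not called (median 1.55), where 32.5% of all tested genes were called higher. EGR1 had the largest rise at 5.99, followed by DUSP6 at 4.76 and SPRY4 at 3.35 on the log2 scale. In EGR1 the T47D-TR counts were 1536, 2472 and 505, so that replicate 3 was again the lowest, and many receptors besides these 8 act on the same genes.

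Set among the 44 receptor tyrosine kinases ranked, the 8 genes lay between ranks 1 and 27 in T47D and between ranks 1 and 39 in T47D-TR. Per kilobase of coding sequence their order in T47D was MET, AXL, DDR1, TYRO3, FGFR1, FGFR3, FGFR4 and FGFR2, from 151 ± 2.48 to 1.32 ± 0.121 CPM (SD, n = 3). Neighbours in this order were separate in every library except FGFR1 (9.57 ± 0.349) and FGFR3 (8.99 ± 0.362), whose ranges overlapped. In T47D-TR, FGFR4 came before FGFR3 and all neighbours were separate. With exon union length MET, AXL and DDR1 still came first and FGFR2 last, but the order between them changed. It was then FGFR4, TYRO3, FGFR3 and FGFR1 in T47D, with TYRO3 and FGFR3 overlapping, and FGFR1, TYRO3, FGFR4 and FGFR3 in T47D-TR, where FGFR1 overlapped TYRO3 and TYRO3 overlapped FGFR4. Among the 44 kinases AXL went from rank 2 to 5, as EPHA2, EGFR and RYK stood above it in T47D-TR, and FGFR3 from 15 to 23 and FGFR2 from 27 to 39. DDR1 kept rank 8, TYRO3 went from 12 to 10 and FGFR1 from 14 to 13.

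**Figure D4:**
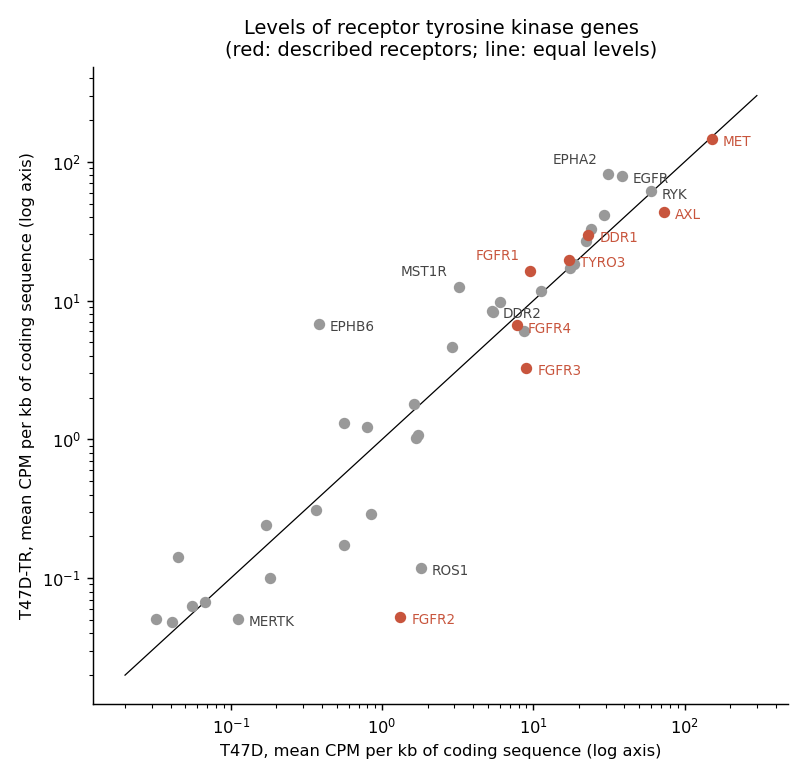
Mean level of receptor tyrosine kinase genes in CPM per kilobase of coding sequence, T47D on the horizontal and T47D-TR on the vertical axis, both logarithmic, for the 41 genes above 0.02 in both groups. MET lies at the top near the line of equal levels, FGFR1 above it, and AXL, FGFR3 and FGFR2 below it.

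Of the 26 other receptor tyrosine kinase genes tested, 13 rose, 6 fell and 7 missed the threshold, and their median log2 fold change was 0.36. The share called was 73.1%, against 63.0% of all tested genes, of which 32.5% were called higher and 30.5% lower. Among the 34 genes, FGFR2 had the largest fall by edgeR's estimate and ROS1 the next, from 255, 246 and 222 counts to 15, 12 and 19. The order of FGFR2 and ROS1 is uncertain. Over the alternatives FGFR2 ranged from -5.29 to -3.99 on the log2 scale, and on leaving out 1 library ROS1 ranged from -4.18 to -3.75. EPHB6, an ephrin receptor gene without kinase activity, had the largest rise, from 29, 14 and 23 counts to 387, 471 and 310. EPHA2, also an ephrin receptor gene, rose by 1.38, AATK fell by 1.68 and EPHA5 by 1.54 on the log2 scale.

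**Figure D5:**
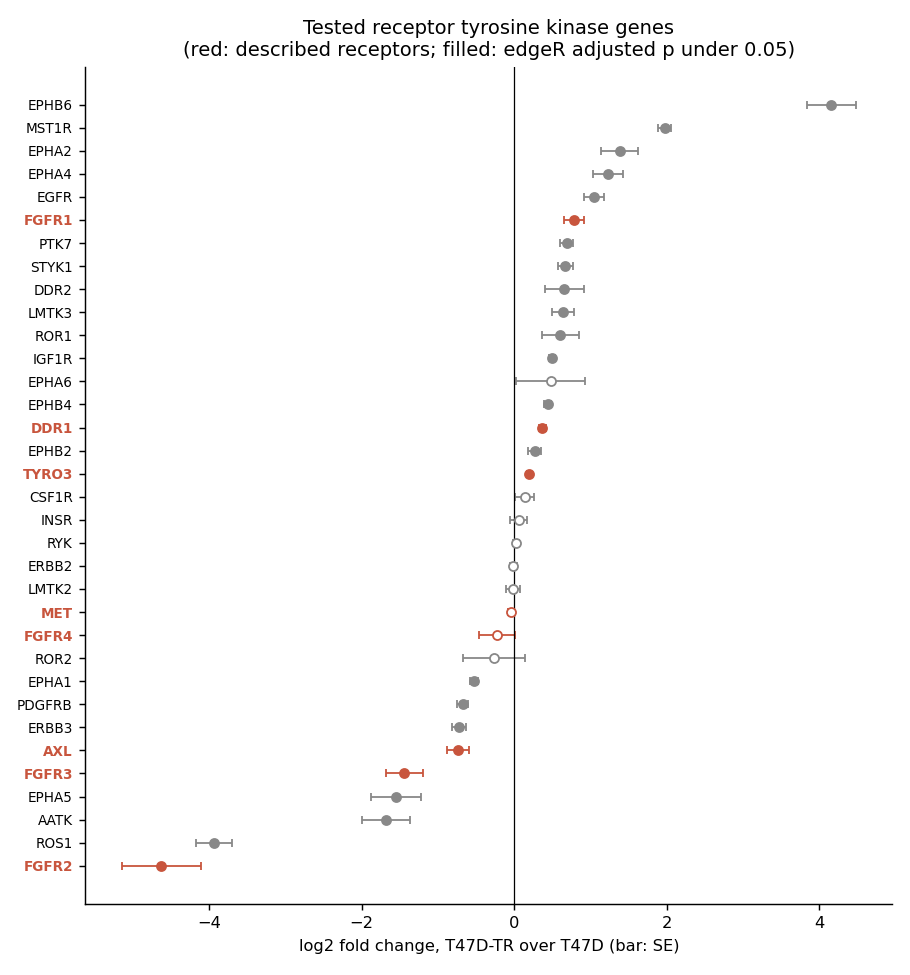
Log2 fold change (horizontal axis, T47D-TR over T47D) with its SE for the 34 tested receptor tyrosine kinase genes, ordered by size, with the 8 described receptors in red and genes called by edgeR filled. FGFR2 lies at the bottom at -4.62, MET near 0 and FGFR1 highest of the 8 at 0.79.

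Spread between libraries also separated the receptors. In T47D the coefficient of variation was 0.927% to 5.60% for all but FGFR2 (9.13%). In T47D-TR it was 1.76% for TYRO3, 2.22% for DDR1 and 4.10% for MET, but 15% for FGFR1, 15.7% for AXL, 25.4% for FGFR4, 26.2% for FGFR3 and 92.4% for FGFR2 with its 0 to 4 counts. Relative to the mean of the other T47D-TR libraries, replicate 3 stood at 60.6% for FGFR3, 62.4% for FGFR4, 75.2% for AXL and 76.2% for FGFR1, and at 93.5% for MET. It stood at 103% for TYRO3, 101% for DDR1 and, on 4 counts, 310% for FGFR2. Among tested genes 7.39% were at or below 75% in that library, and the median gene was at 100%.

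The genes whose levels ran most nearly in parallel with each receptor over the 6 libraries were found by the root mean square distance of centred log2 CPM among 14475 genes. For FGFR3 these were IDI1 (distance 0.0545) and SQLE (0.0657), both of which also had their lowest value in T47D-TR replicate 3. For FGFR1 they were MYPN (0.0313) and ELK3 (0.0488), for TYRO3 MTUS1 (0.0103) and CCNI (0.0117), and for DDR1 PARD3 (0.019) and CTDSP2 (0.0193). For AXL, APOBEC3B was among the nearest (0.0556). FGFR2 had no close match, with IQGAP2 at 0.344 and SDK1 at 0.372. The 6 points share the difference between the 2 groups, and the likeness is a description of these libraries.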

How the data were processed

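RNA of T47D and T47D-TR cells was extracted with TRIzol, poly(A)-selected and made into directional libraries, per the labels' protocols. The submitters' processing notes list HISAT2 2.1.0, the GRCh38 build and DESeq. The DESeq version, counting tool, annotation and strand setting were not given in the sources used here. Raw counts per gene were deposited by the authors, and the same deposited table holds a normalized signal per group, a fold change ratio, its log2 and p-values with false discovery rates. All 6 count columns were used and 0 per-sample columns were left unused.

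Counts were tested with edgeR 4.0.16 (R 4.3.3; quasi-likelihood, TMM, filterByExpr at 10 counts, total 15), fitted on all genes, with Benjamini-Hochberg adjusted p under 0.05 as a call. Alternatives used DESeq2 1.42.0, limma 3.58.1 on log2 CPM (prior count 2) and voom, other scalings and filters, a replicate block and leaving out each library. Levels were divided by the longest principal coding sequence in GENCODE 29. Shares and ratios were compared by exact permutation. The edgeR procedure was tested on simulated data. Counts of 0 were read against a floor of 3 counts. The exact interval of FGFR2 covers counting error only. Intervals of FGFR4 and MET were instead computed from the SE of the log2 fold change, which reflects the spread between libraries.

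The receptors and gene lists were chosen with earlier results of these data known. Named genes were all 8 receptors, up to 3 called genes with the highest and up to 3 with the lowest log2 fold change of each pathway list with separate groups, the most abundant ligand, known ligands, and the 2 nearest genes of each called receptor among those of at least 1 CPM. For AXL 1 of these is not reported here. SPINT2, CD44, GAB1, FRS2, KLB, COL1A1, EGFR, RYK and the marker genes were named after their values were seen. No pairing by replicate number was seen: deviations of same-numbered libraries correlated at -0.00512, -0.0208 and -0.0138. Such correlations, with 3 libraries per group, cannot show that pairing was absent.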

Additional observations from a re-analysis of the deposited data

How the results depend on the processing

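Over 14 alternatives the 8 receptors kept their direction and side of the threshold in 110 of 111 values. The exception was MET, which was not called in either case and turned to 0.025 (adjusted p = 0.605) with voom and quantile normalization. That scaling shifted the median of all genes by -0.11 on the log2 scale and took the share of calls that were higher from 51.6% to 43.0%, and under it FGFR4 reached an adjusted p of 0.05. Of other named genes 649 of 651 values kept direction and call, and both exceptions were GAS6, at -0.104 with voom and quantile normalization and -0.027 without T47D-TR replicate 3 (range on leaving out 1 library -0.027 to 0.0876). At a mean of at least 5 CPM FGFR2 was not tested, so that 2 receptors were called lower. Counts over lists moved by over 1.5 times in 13 of 224 cases.

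Length set the shares and ratios. With the union of annotated exons, an alternative chosen after seeing the data, FGFR1 held 25.0% of the FGF receptor sum in T47D and 49.2% in T47D-TR, FGFR4 39.1% and 37.3%, and FGFR2 3.24% in T47D. The ratio of FGFR1 to FGFR3 was then 0.769 and 3.71, of TYRO3 to AXL 0.129 and 0.25, and of MET to DDR1 8.03 and 6.01. Without division by length FGFR1 held 35.8% in T47D, the ratio of FGFR1 to FGFR3 in T47D was 1.12, and that of MET to DDR1 was 10.1 in T47D and 7.54 in T47D-TR.

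With the replicate number as a block edgeR called 9954 genes in place of 10053, and each receptor kept its call: FGFR1 0.778, FGFR2 -4.62, FGFR3 -1.46, FGFR4 -0.246, MET -0.0444, AXL -0.747, TYRO3 0.189 and DDR1 0.371 on the log2 scale. Depth limits FGFR2 in T47D-TR and MERTK, which lie near the floor of 3 counts.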
